A study of Mus musculus with 2 samples.

Results

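Imprinted genes are expressed mainly from one parental chromosome, and a list of 36 mouse genes named as imprinted was followed here in heart against mouse embryonic fibroblasts (MEF). Probes were assigned to them by gene symbol in the platform annotation, and the rule used no measured value, though the list was drawn up with earlier results of these data known. Of the 36 genes, 34 had at least 1 probe, among 19532 genes measured in all; Rtl1 and Zrsr1 had no probe under their symbols and were not analysed here. By textbook knowledge of the mouse, 19 of the 34 are expressed from the paternal allele and 13 from the maternal allele. Gnas gives transcripts from either allele. Dcx, an X-linked gene of migrating neurons, was given no parental class as an imprinted gene, but stays in the counts of the 34. The arrays measure the RNA of both alleles together, so no value below shows which allele was read.

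The study hybridised 2 two-colour Agilent arrays, each with RNA of a mouse heart in Cy3 (heart-1 or heart-2, uncultured and untreated) and RNA of MEF in Cy5. MEF are connective-tissue cells grown out of mouse embryos, here in DMEM with fetal bovine serum. The labels give no genotype, strain, age or sex, and do not say whether the hearts are separate animals or the MEF RNA 1 preparation. The p-values therefore rest on how far 2 arrays differ, which may reflect technical rather than biological spread. The dyes were not exchanged, so a probe's own dye bias stays in its ratio.

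Values are log2 ratios taken as heart over MEF, a direction that is likely rather than stated: it rests on 8 cardiomyocyte markers with a median of 6.57 on heart-1 and 6.66 on heart-2. All 8 fibroblast markers were lower in heart (median -6.28), as were all 7 measured markers of dividing cells (median -3.56), while all 8 endothelial markers were higher (median 4.26). Of 10 neuron markers, 3 were higher and 3 lower in heart. How far these differences in cell makeup bear on the imprinted genes was not tested, and in such bulk RNA fewer cells of a type cannot be told apart from less RNA per cell. The arrays correlated at 0.982 over all genes (Pearson; genes are not independent replicates).

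Imprinting is set in the germ line by DNA methylation of control regions and is kept through later cell divisions, so that each gene is read from one parental chromosome. Many of the paternally expressed genes favour fetal growth and many of the maternally expressed ones limit it, and a good number of both are abundant in embryonic tissues and decline after birth. In several domains a long non-coding RNA is made from one parental chromosome while protein-coding neighbours are read from the other.

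The promoter windows of 6 genes are shown because their genes span the range of the ratios, from the lowest to a gene that was higher in heart. Each covers 250 bases before and 50 bases after a RefSeq transcription start (GRCm38.p6), written 5′ to 3′ on the gene's strand. Capitals mark the hexamer TGCCGC or its reverse complement GCGGCA; methylated TGCCGC is the binding sequence of ZFP57, a zinc-finger protein that protects imprints in the early embryo. For Igf2, Meg3, Mest and Snrpn, which have several starts in the table, a window was picked because it holds the hexamer.

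Igf2, chr7:142661222-142661521 (- strand): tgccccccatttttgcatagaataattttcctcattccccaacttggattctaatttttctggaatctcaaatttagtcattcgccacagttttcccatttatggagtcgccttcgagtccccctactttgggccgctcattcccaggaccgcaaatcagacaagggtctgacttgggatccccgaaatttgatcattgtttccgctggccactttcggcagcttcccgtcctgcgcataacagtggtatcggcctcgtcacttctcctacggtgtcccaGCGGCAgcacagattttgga
Meg3, chr12:109540746-109541045 (+ strand): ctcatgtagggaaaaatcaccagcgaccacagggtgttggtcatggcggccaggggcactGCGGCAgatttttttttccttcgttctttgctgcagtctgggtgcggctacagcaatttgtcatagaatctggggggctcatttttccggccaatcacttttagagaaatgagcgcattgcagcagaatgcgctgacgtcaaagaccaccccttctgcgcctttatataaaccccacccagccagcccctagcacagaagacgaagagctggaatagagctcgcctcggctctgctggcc
Mest, chr6:30737800-30738099 (+ strand): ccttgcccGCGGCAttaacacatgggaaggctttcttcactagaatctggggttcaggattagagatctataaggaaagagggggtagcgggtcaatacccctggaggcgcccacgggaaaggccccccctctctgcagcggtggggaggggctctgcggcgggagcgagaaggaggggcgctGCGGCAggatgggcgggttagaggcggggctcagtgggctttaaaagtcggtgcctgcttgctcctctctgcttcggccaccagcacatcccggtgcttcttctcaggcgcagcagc
Peg3, chr7:6730370-6730669 (- strand): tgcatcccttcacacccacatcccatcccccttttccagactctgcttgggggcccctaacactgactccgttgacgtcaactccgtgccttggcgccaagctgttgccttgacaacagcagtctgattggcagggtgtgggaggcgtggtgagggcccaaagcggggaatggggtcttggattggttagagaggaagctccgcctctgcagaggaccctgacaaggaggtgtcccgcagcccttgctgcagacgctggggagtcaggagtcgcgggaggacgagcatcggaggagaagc
Plagl1, chr10:13090582-13090881 (+ strand): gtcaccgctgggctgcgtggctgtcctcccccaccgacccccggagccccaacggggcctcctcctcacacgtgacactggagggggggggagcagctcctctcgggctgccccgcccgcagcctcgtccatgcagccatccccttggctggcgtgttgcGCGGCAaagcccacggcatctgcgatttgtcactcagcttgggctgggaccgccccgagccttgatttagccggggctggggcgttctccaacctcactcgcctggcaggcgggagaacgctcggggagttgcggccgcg
Snrpn, chr7:60005150-60005449 (- strand): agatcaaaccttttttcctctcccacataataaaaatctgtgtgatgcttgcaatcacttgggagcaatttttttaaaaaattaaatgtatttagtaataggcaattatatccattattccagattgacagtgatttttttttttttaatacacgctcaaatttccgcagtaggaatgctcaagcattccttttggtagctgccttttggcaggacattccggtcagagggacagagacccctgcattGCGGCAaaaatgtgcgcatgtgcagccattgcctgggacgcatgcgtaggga

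Peg3 and Plagl1 have 1 window each, the first without the hexamer and the second with it. Of the 36 genes, 30 were matched by symbol in the table of RefSeq windows used here, with 46 windows in all. The hexamer, searched on both strands, occurred in 9 of the 46 windows (19.6%), against 11.6% of 32851 promoter windows of the same length over all genes. Mest windows that start at 30737800 and 30737803 overlap and hold the same hexamers, yet each is counted. The median number of CpG dinucleotides was 13 per window, against 7 over all windows. The hexamer itself contains a CpG, so these comparisons are not independent. These are descriptions of the letters in the windows; the array gives no methylation or binding.

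Most of the 34 genes followed here were lower in heart. They were chosen with earlier results of these data known, and other imprinted genes had medians nearer 0 (below). Of the 34 measured genes, 24 were lower, 5 were higher and 5 did not pass (limma, two-sided, Benjamini-Hochberg adjusted p under 0.05 over all 19532 genes). Over all genes, 39.3% were called lower and 33.8% higher by the same test, so 73.1% of genes were called in all. The share of imprinted genes called lower was 70.6% and the share called higher 14.7%. Their median log2 ratio was -1.02, against -0.04 over all genes. At least 4-fold lower on both arrays were 12 of the 34, against 7.2% of all genes, and 0 of the 34 were at least 4-fold higher on both, against 8.99% of all genes. The lowest 5% of all genes by mean ratio held 11 of the 34. Dlk1 is in this count and in the 4-fold count through the average of 2 probes that disagreed (below). At least 2-fold on both arrays, 16 of the 34 were lower and 3 higher, against 18.5% and 18.1% of all genes. When the null was a 2-fold change (limma treat), 14 were called lower and 3 higher, beside 14.6% and 15.1% of all genes.

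**Figure D1:**
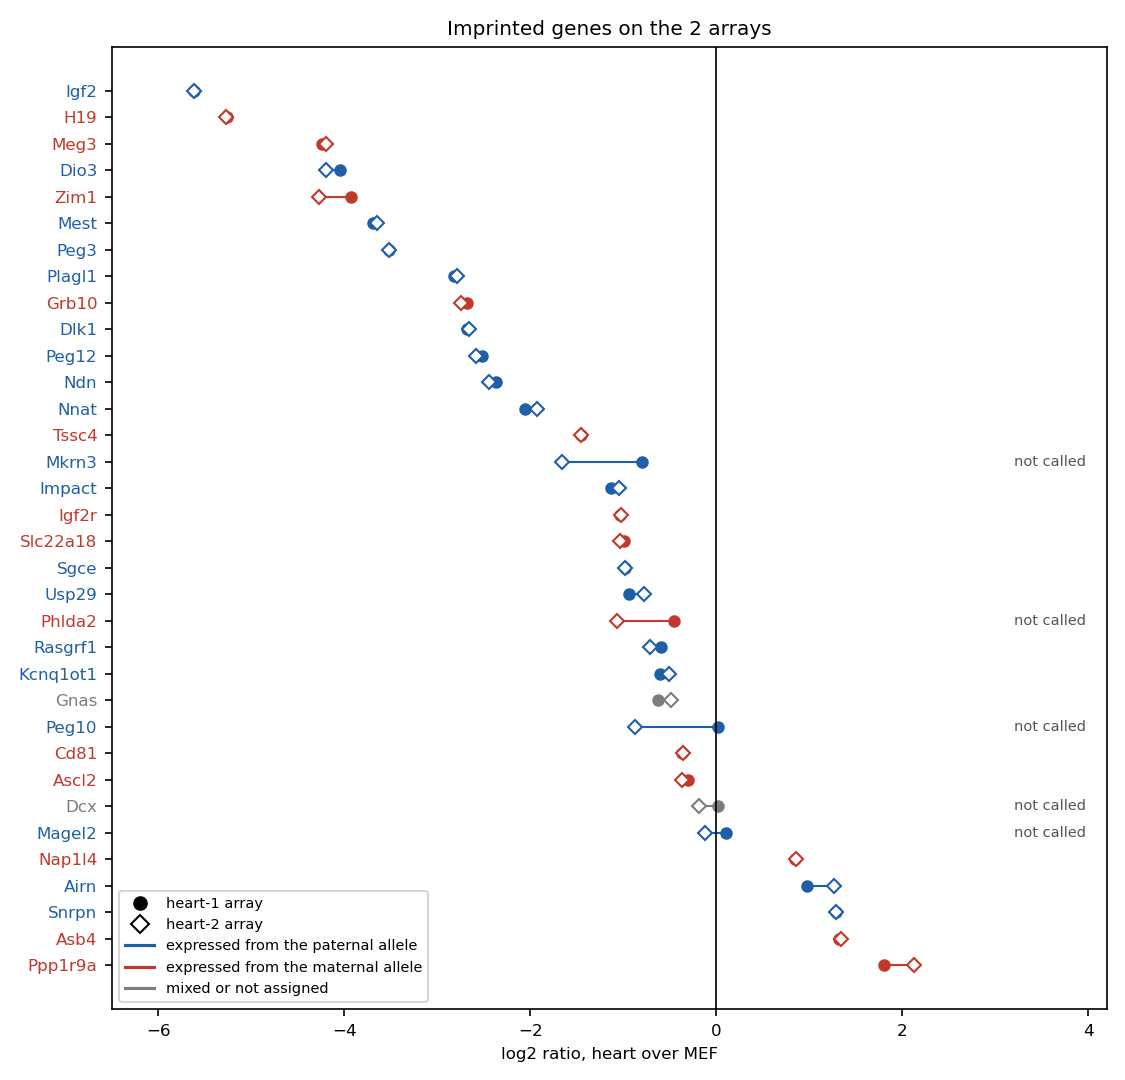
Log2 ratio of heart over MEF (x axis) for each of the 34 measured imprinted genes (y axis, ordered by the mean), with a filled circle for the heart-1 array and an open diamond for the heart-2 array. Blue genes are expressed from the paternal and red genes from the maternal allele, grey ones are mixed or not assigned; the ratios run from -5.62 for Igf2 to 1.96 for Ppp1r9a, and the 5 genes that did not pass the test are marked.

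Paternally and maternally expressed genes had overlapping ratios. Of 19 paternally expressed genes 14 were lower, 2 higher and 3 did not pass, with a median of -1.23 (-1.13 on heart-1 and -1.66 on heart-2). Of 13 maternally expressed genes 9 were lower, 3 higher and 1 did not pass, with a median of -1.01 (-0.99 and -1.03). The ranges ran from -5.62 to 1.29 for paternal and from -5.27 to 1.96 for maternal genes. The medians differed by -0.22, paternal minus maternal, and this difference has no test because genes are not replicates. On heart-1 alone it was -0.14 and on heart-2 alone -0.63. Its sign depended on the class. Set apart as mainly placental were 8 maternal genes: Ascl2, Phlda2, Cd81, Tssc4, Nap1l4, Ppp1r9a, Asb4 and Slc22a18. Without them the remaining 5 had a median of -4.10 and the difference was 2.87. The size of this change depends on the grouping, which came from general knowledge and may not hold for Phlda2, Slc22a18 and Asb4.

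**Figure D2:**
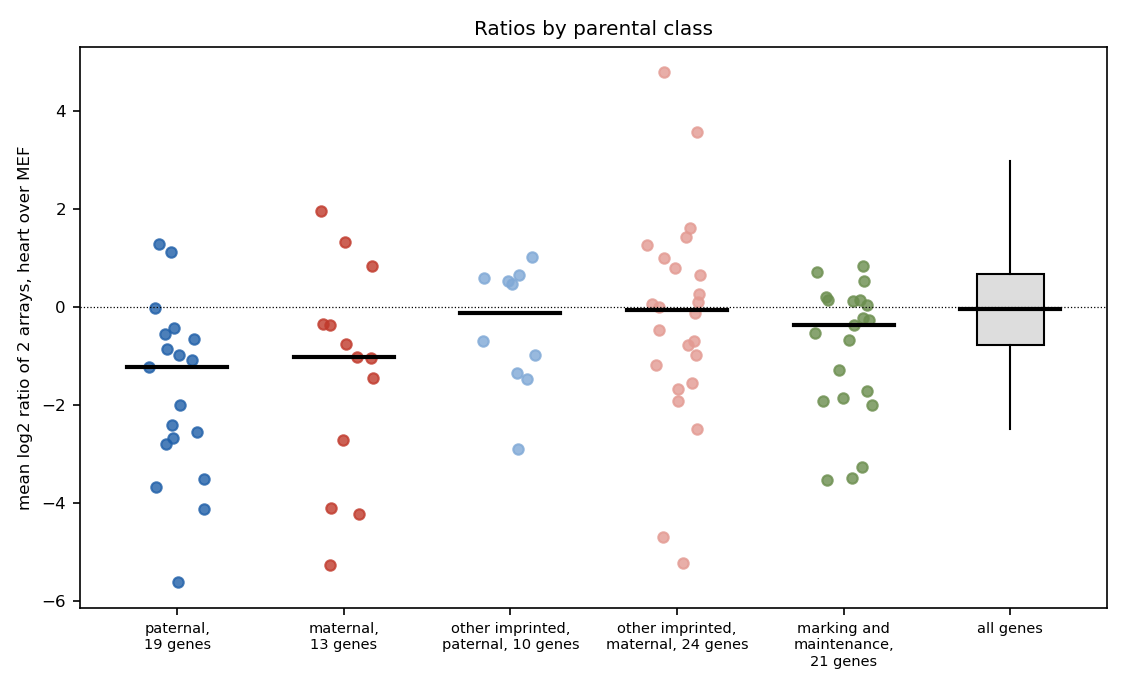
Mean log2 ratio of heart over MEF over both arrays (y axis), 1 point per gene, for the paternal and maternal classes, 2 lists of other imprinted genes and the list of genes that mark and maintain imprints; thick lines are medians. The box for all genes spans the quartiles and its whiskers the 5th to 95th percentiles; the paternal (-1.23) and maternal (-1.01) medians lie below the box's median of -0.04.

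The Igf2 and H19 pair had the lowest ratios of all 34 genes. Igf2, the fetal growth factor read from the paternal chromosome, stood at -5.62 on both arrays (49.2-fold lower in heart; adjusted p = 0.00136, the smallest the test gave). Its 2 probes had means of -5.96 and -5.28. H19, the maternally expressed non-coding RNA beside it, stood at -5.26 on heart-1 and -5.28 on heart-2 over 1 probe (adjusted p = 0.00136). Both partners of this oppositely imprinted pair were thus lower in heart on each array. The ratio of Igf2 was below that of H19 by a log2 difference of -0.36 on heart-1 and -0.34 on heart-2. This gap rested on 1 Igf2 probe, since the other (-5.28) matched the H19 probe (-5.27). Of 9 genes on neither imprinted list in and around this stretch of distal chromosome 7, which runs on to Nap1l4, 7 were lower, 1 was higher and 1 did not pass, between -1.90 and 1.59 (median -0.86). Mrpl23, the 1 higher gene and the nearest measured gene beyond H19, which encodes a mitochondrial ribosomal protein, stood at 1.59 ± 0.06 (SD, n = 2; adjusted p = 0.0018). Ins2, the insulin gene next to Igf2, was lower at -0.69 ± 0.15. Igf2r, the maternally expressed receptor that takes IGF2 to the lysosome, was lower at -1.04 and -1.02. Airn, the paternal antisense RNA that silences Igf2r on its own chromosome, was higher at 0.98 and 1.26 (adjusted p = 0.00981). All 4 Airn probes lay above 0, from 0.52 to 2.27, and the Airn ratio exceeded that of Igf2r by 2.01 on heart-1 and 2.29 on heart-2. Genes around this pair were mostly higher too: of 6 flanking genes on neither imprinted list 5 were higher and 1 lower (median 1.33), with Plg at 1.20 ± 0.10 and Mas1 at 1.45 ± 0.04 as the nearest.

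The gene averages of all measured imprinted genes in the Dlk1 to Dio3 domain of chromosome 12 were lower in heart, though the probes of Dlk1 disagreed (below). Meg3, the maternal non-coding RNA, was at -4.24 and -4.20 (18.6-fold lower), and its 5 probes ran from -4.64 to -3.65. Dio3, the paternally expressed enzyme that inactivates thyroid hormone, was at -4.05 and -4.20 over 1 probe (adjusted p = 0.00136). The maternal non-coding RNAs Rian and Mirg, which are further imprinted genes of this domain, were at -5.24 ± 0.16 and -4.69 ± 0.02 (SD, n = 2). Flanking genes on neither imprinted list were closer to 0. Wdr25, the nearest measured gene before Dlk1, was lower at -0.40 ± 0.06, and Ppp2r5c, the nearest after Dio3, stood at -0.15 ± 0.01 without passing. Over 7 such genes in and around the domain the ratios ran from -1.37 to 0.88. Dio3os, the transcript opposite Dio3, lay inside the domain at -0.17 ± 0.04 and did not pass.

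Dlk1, a transmembrane protein of the Notch ligand type that holds back fat cell formation, had 2 probes that disagreed. One stood at -6.29 on heart-1 and -6.34 on heart-2, and the other at 0.93 and 1.01. Their average, -2.67, is called lower (adjusted p = 0.00136), yet neither probe is near it. The small SD of 0.01 between arrays says nothing about this gap.

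The Peg3 domain of proximal chromosome 7 was lower as well. Peg3, a paternally expressed zinc-finger protein, was at -3.52 on both arrays, with 3 probes from -4.82 to -1.50. Zim1, the maternally expressed zinc-finger gene next to it, was at -3.93 and -4.27 (17.2-fold lower; adjusted p = 0.00196). Usp29, a paternal ubiquitin protease gene, was lower at -0.94 and -0.78, but its 3 probes ran from -2.59 to 1.25. The windows of Peg3 and Usp29 face in opposite directions and overlap by 263 bases, so these starts share 1 promoter region although the gene averages differ. Zim2 (0.02 ± 0.19, not passing) and Aurkc, a meiotic kinase (2.00 ± 0.02, higher), both on neither imprinted list, flank these 3 genes. The 1 probe of Zim2 stood at 0.15 on heart-1 and -0.11 on heart-2. Each array holds a dense band of near-constant values there, from 0.12 to 0.20 and from -0.20 to -0.10. The Zim2 value therefore cannot be read as a lack of change.

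**Figure D3:**
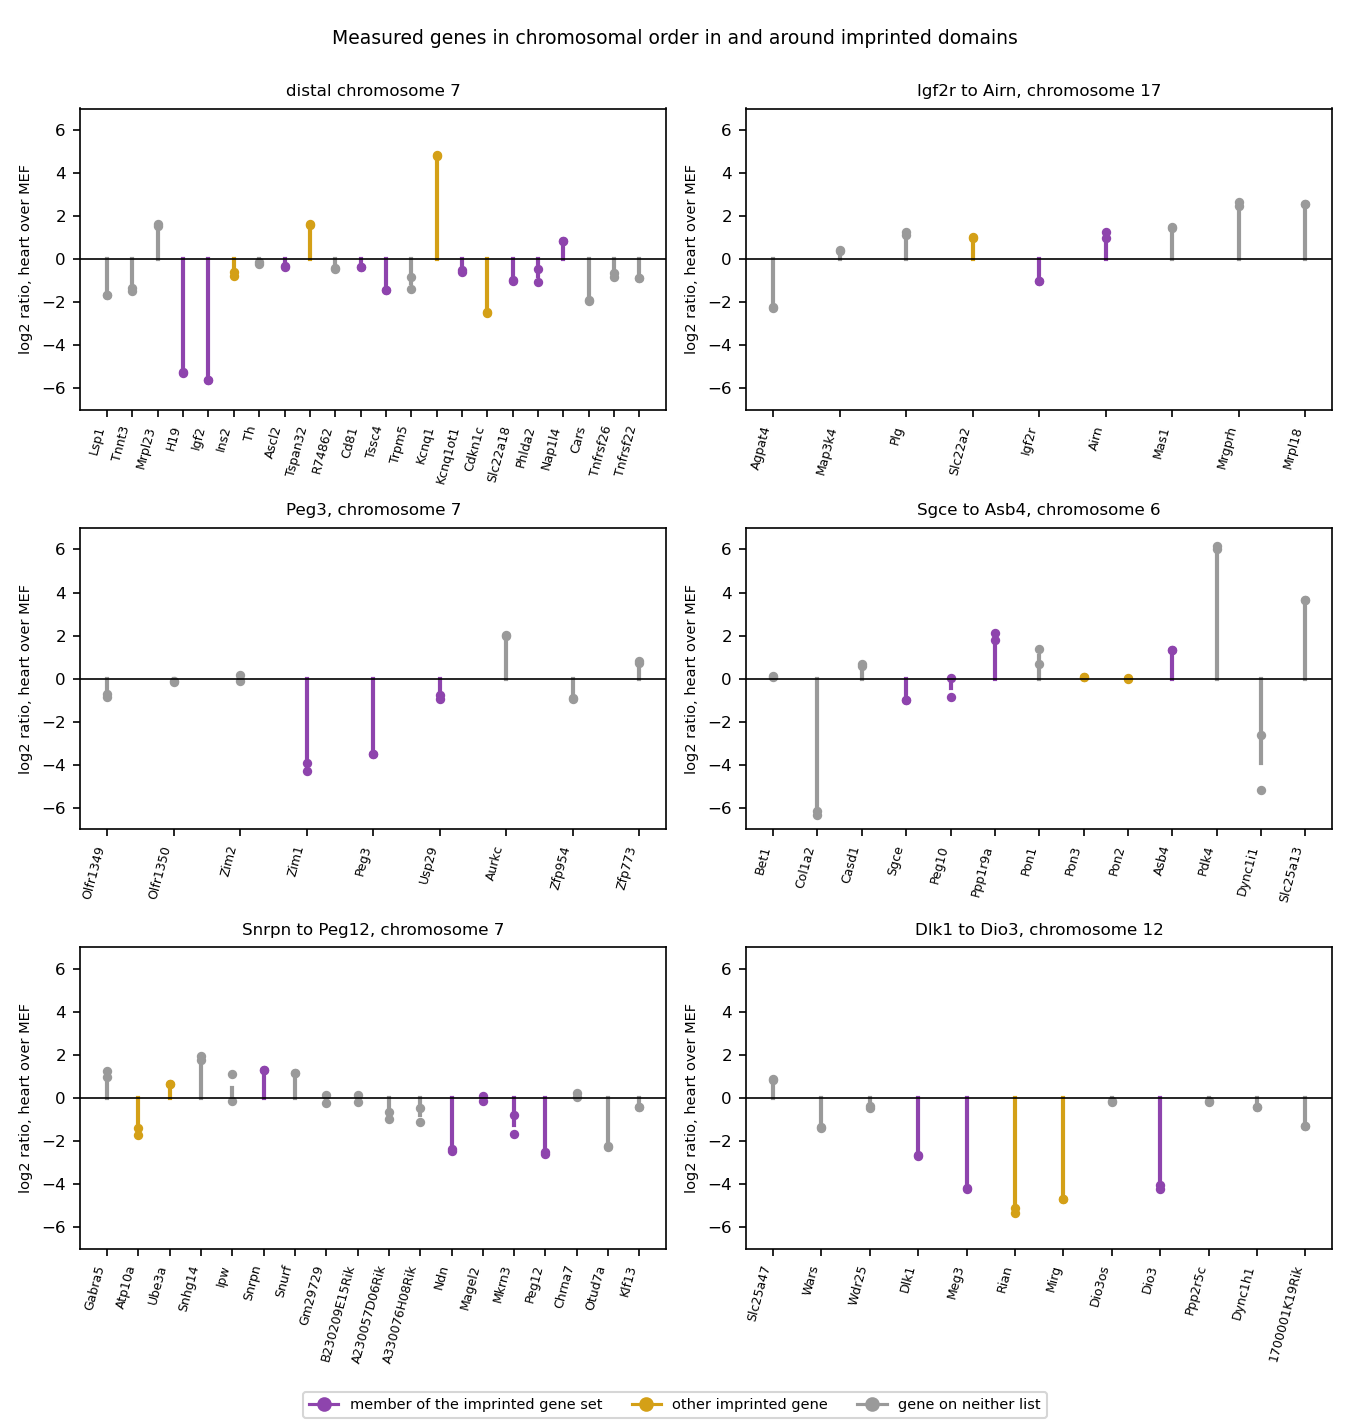
Measured genes in chromosomal order in and around 6 imprinted regions, with the log2 ratio of heart over MEF (y axis); stems reach the mean and points are the 2 arrays. Purple marks the imprinted genes followed here, gold other imprinted genes and grey genes on neither list; the deepest runs are H19 with Igf2 and Dlk1 to Dio3, where Rian reaches -5.24, while the Snrpn to Peg12 and Sgce to Asb4 regions hold ratios of both signs.

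The Snrpn to Peg12 region of chromosome 7, whose human counterpart is lost in Prader-Willi syndrome, held ratios of both signs although all 5 genes followed there are paternally expressed. Snrpn, a core protein of spliceosomal particles, was higher in heart at 1.29 on both arrays (2.44-fold; adjusted p = 0.00182), with probes at 1.32 and 1.26. Snurf, which shares its transcript, stood at 1.16 ± 0.01 and also passed. Ipw, the nearest measured gene before Snrpn, stood at 1.13 on heart-1 and -0.15 on heart-2, and Chrna7, the nearest after Peg12, at 0.05 and 0.23; neither passed. At the other end of the region Ndn, a MAGE family growth suppressor of neurons, was lower at -2.37 and -2.45 (5.30-fold). Peg12, also known as Frat3 and related to regulators of Wnt signalling, was lower at -2.52 and -2.59. Mkrn3, a ubiquitin ligase that holds back puberty in humans, stood at -0.80 and -1.66, below 0 on both arrays but not passing (adjusted p = 0.0549). It passed once the arrays were centred, in a fit that gave every gene the same variance and so set aside its gap between arrays. Magel2, another MAGE family gene, stood at 0.10 and -0.13 (adjusted p = 0.919). That is close to the dense band of near-constant values which each array holds, from 0.12 to 0.20 on heart-1 and from -0.20 to -0.10 on heart-2. Channel intensities were not used here, so whether Magel2 was above background in either RNA cannot be said.

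The Sgce to Asb4 region of chromosome 6 likewise went both ways. Sgce, epsilon-sarcoglycan, a paternally expressed membrane protein, was lower at -0.98 and -0.99 over probes at -0.73 and -1.23. Peg10, a gene derived from a retrotransposon and needed in the placenta, was at 0.02 on heart-1 and -0.87 on heart-2, a gap larger than that of 97.1% of genes; it did not pass (adjusted p = 0.318). Asb4, an adaptor of ubiquitin ligases, was higher at 1.31 and 1.34 (adjusted p = 0.00181), with both probes above 0. Ppp1r9a, neurabin, an actin-binding anchor of protein phosphatase 1, was highest of the 34 genes at 1.80 and 2.13 (3.90-fold). Its 6 probes ran from -0.16 to 5.66, with 1 probe at 5.65 and 5.67; the median over probes gave 1.70. Pdk4, the nearest measured gene after Asb4, was far higher in heart at 6.09 ± 0.09, and Casd1, the nearest before Sgce, was higher at 0.62 ± 0.06. Both arrays thus placed the maternal genes Asb4 and Ppp1r9a above 0 and the paternal gene Sgce below it. Pon3 (0.07 ± 0.01) and Pon2 (0.01 ± 0.04), further maternal genes inside this region, did not pass. The ratios of the region therefore did not divide cleanly by parental class.

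Around Kcnq1ot1, on distal chromosome 7, the 7 genes followed here lay between -1.46 and 0.85. Kcnq1ot1, the paternal non-coding RNA that silences this domain, was lower at -0.61 and -0.51, with 6 probes from -1.90 to 0.18. Among the maternal genes it controls in cis, Tssc4 was lower at -1.45 and -1.46 and Slc22a18, a membrane transporter, at -0.99 and -1.03. The tetraspanin Cd81 (-0.37 and -0.36) and Ascl2, a trophoblast transcription factor (-0.30 and -0.37), were also called lower. Both lost the call once the arrays were centred (limma, adjusted p = 0.112 and 0.157). Centring moved the median over all genes by only 0.036. It subtracted array medians of 0.07 on heart-1 and -0.14 on heart-2, and so moved the arrays in opposite directions. Before centring, heart-1 minus heart-2 had a median of -0.001 over all genes, so centring itself set apart arrays that had agreed. Its fit also gave every gene the same variance, whatever the gap between arrays. Phlda2, which limits placental growth, stood at -0.45 and -1.07 without passing (adjusted p = 0.0726) unless the arrays were centred, and 1 of its 2 probes gave 0.17 on heart-1 against -1.07 on heart-2. Nap1l4, a histone chaperone at the edge of the domain, was higher at 0.84 and 0.86, with 3 probes from 0.37 to 1.21; Cars, the nearest measured gene after it, was lower at -1.90 ± 0.03. Further maternal genes here moved apart: Cdkn1c, a cell cycle inhibitor, was lower at -2.48 ± 0.01, and Kcnq1, a cardiac potassium channel that overlaps Kcnq1ot1, was higher at 4.80 ± 0.03 (27.8-fold; SD, n = 2).

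Of the 8 measured genes outside these groups 7 were lower in heart. Mest, a paternally expressed hydrolase-like protein of growing mesoderm, was at -3.69 and -3.65 over 1 probe (12.7-fold). Plagl1, a zinc-finger transcription factor that acts on other imprinted genes, was at -2.82 and -2.79 (6.97-fold), with both probes below -2. Grb10, an adaptor that dampens insulin and IGF signalling and is maternally expressed outside the brain, was at -2.68 and -2.75, with 3 probes from -3.49 to -1.42. Nnat, a small membrane protein of the developing brain, stood at -2.06 and -1.93. The values of Impact, a regulator of the amino acid stress kinase GCN2, were -1.13 and -1.04. Rasgrf1, a Ras exchange factor, averaged -0.60 and -0.72 over 4 probes, 1 of which lay in the near-constant band. Gnas, which encodes the stimulatory G protein alpha subunit and several other transcripts, was at -0.63 and -0.49; its 8 probes ran from -1.70 to 0.44. Dcx did not pass at 0.02 and -0.19 (adjusted p = 0.408), with 2 of 3 probes in the near-constant band; the remaining probe alone was called lower (-0.27; adjusted p = 0.0205).

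Probes of 1 gene often differed by more than the arrays did. The 34 genes had 79 probes; 15 genes had 1 probe and 19 had several, and in 6 of these (Dlk1, Usp29, Kcnq1ot1, Gnas, Ppp1r9a and Dcx) the probe means fell on both sides of 0. Between arrays, 26 of the 34 genes differed by less than 0.2, and the median absolute difference was 0.07, against 0.09 over all genes. Peg10, Mkrn3 and Phlda2 differed most, by 0.89, 0.85 and 0.61, and each was lower on heart-2. The 95% intervals of the 5 genes that did not pass were -1.59 to 0.74 for Peg10, -1.56 to 0.04 for Phlda2, -0.34 to 0.31 for Magel2, -0.38 to 0.21 for Dcx and -2.34 to -0.12 for Mkrn3 before adjustment. For Peg10, Phlda2 and Mkrn3 a change of 2-fold downward lies inside the interval, whereas for Magel2 and Dcx it does not. Most Dcx probes lie in the near-constant band and Magel2 lies close to it. Their narrow intervals therefore cannot exclude a 2-fold change in the RNA.

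**Figure D4:**
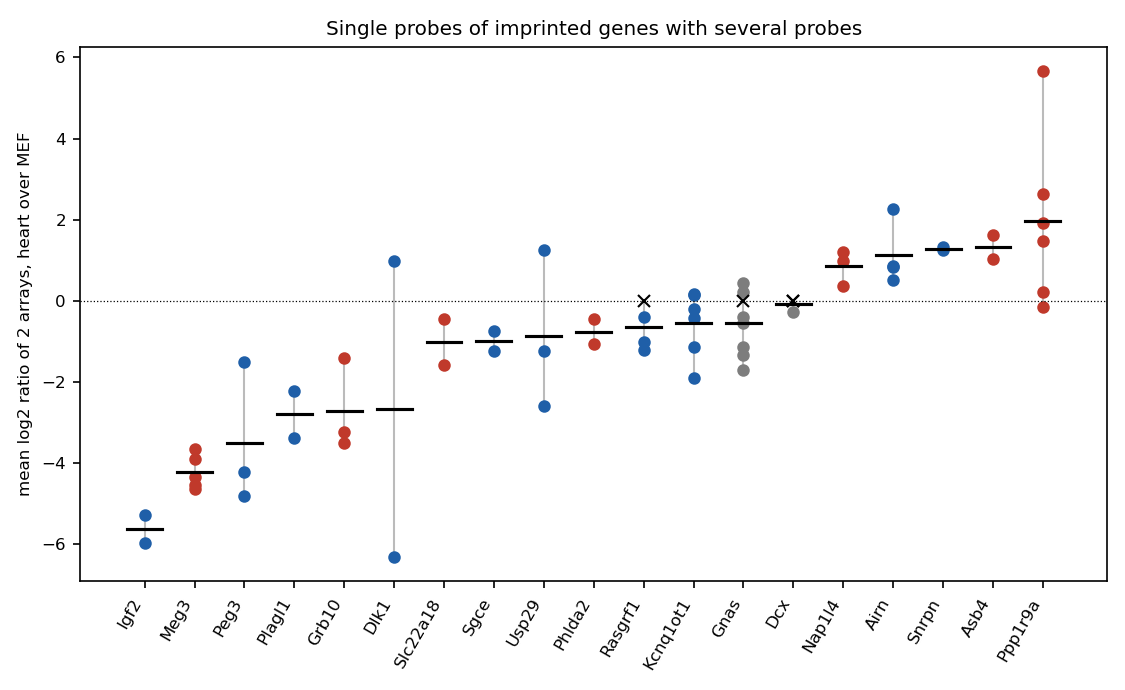
Mean log2 ratio of heart over MEF over both arrays (y axis) of each probe of the 19 imprinted genes with several probes; thick lines are the gene means used in the test. Crosses are probes in the near-constant band on both arrays; the Dlk1 probes lie on opposite sides of 0, and 1 Ppp1r9a probe stands apart at 5.66.

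Other imprinted genes, from a list that does not overlap the 34, had medians nearer 0. Of 24 maternally expressed ones, 10 were lower, 8 higher and 6 did not pass (median -0.05); of 10 paternally expressed ones, 5 were lower and 5 higher (median -0.11). Over all genes 39.3% were lower and 33.8% higher with a median of -0.04, close to the 41.7% and 33.3% of the maternal list. Slc38a4, an amino acid transporter of the placenta and liver, was lower at -2.90 ± 0.04 (SD, n = 2), Inpp5f at -1.46 ± 0.09, Sfmbt2 at -1.35 ± 0.27 and Zdbf2 at -0.98 ± 0.24. Mcts2 was higher at 1.03 ± 0.01, as were Dcn, the proteoglycan decorin (3.59 ± 0.07), and Tspan32 (1.63 ± 0.03). Among 21 genes that mark and maintain imprints, 13 were lower, 3 higher and 5 did not pass (median -0.37), or 61.9% lower and 14.3% higher against those 39.3% and 33.8% of all genes. The lowest were Uhrf1, which brings DNA methyltransferase to newly copied DNA, at -3.53 ± 0.17, the chromatin remodeller Hells at -3.49 ± 0.33 and Dppa3, which guards methylation in the early embryo, at -3.26 ± 0.07. Trim28, the corepressor that ZFP57 recruits, was at -2.01 and the histone methyltransferase Ehmt2 at -1.92. Against this majority, Tet2, which oxidises methylated cytosine, was higher at 0.84 ± 0.08, Kdm1b at 0.73 ± 0.01 and Arid4a at 0.53. Uhrf1 and Hells are also genes of dividing cells, whose markers were lower in heart (above), and the part of cell division in these ratios was not tested.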

How the data were processed

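Gene expression was measured on 2 two-colour arrays, 1 for each heart RNA against MEF RNA. The authors deposited 1 value per probe and array for 41174 probes, taken here as a log2 ratio. No source names the log base. As log2 the largest absolute value (11.6) gives a 3150-fold ratio; as a natural logarithm it would give 111441, beyond the 65535 of a 16-bit scanner. Agilent Feature Extraction was used, per the submitters' processing notes; its version is not given in the sources used here, nor are the normalization, background correction or filters. Array medians were 0.07 and -0.14; the centring is unknown, and the direction was taken from cardiomyocyte markers.

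Of the probes, 32664 had 1 gene symbol in the platform annotation, 45 several and 8465 none. The gene identifiers of 32524 probes were found in RefSeq (GRCm38.p6), and 0 symbols changed. Probes were averaged per gene and array, giving 19532 genes. The test of each mean ratio against 0 used lmFit and eBayes of limma 3.58.1 (R 4.3.3; prior SD 0.0655 with 1.25 prior degrees of freedom beside 1 residual degree); tables were joined in Python 3.11.15. The script was tested on simulated data. Both arrays share the MEF reference and leave out the spread of MEF cultures. The table holds no intensities, so signal over background and saturation could not be judged and no level of 1 probe is set against another; the number of arrays limits the precision.

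The dense band of near-constant values was found from bins of 0.02 and held 3333 probes (8.09%) on both arrays. All measured members are named. From the other lists the 5 genes with the largest absolute ratio and up to 3 against the majority are named, with the nearest measured neighbours of each domain; Snurf, Dio3os, Ins2 and genes beyond these were added after their values were seen. Parental classes and domains come from general knowledge. The members and lists were chosen with earlier results of these data known. The alternatives tried were other zeros and scales of the ratio, other rules for probes, other variance priors, a 2-fold null, other classes and single arrays.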

Additional observations from a re-analysis of the deposited data

How the results depend on the processing

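With the arrays centred, shifted to their densest bin or scaled, with the median over probes or with a robust variance prior, 24 imprinted genes were lower and 5 higher in heart, as reported; without probes in the near-constant band 25 were lower and 5 higher. Without variance shared across genes 16 were lower and 3 higher (3210 and 2921 of all genes), with 10 calls lost, among them Zim1, Nnat, Airn and Ppp1r9a, and against a 2-fold change 14 and 3 (2850 and 2947). Under centring, scaling and the densest bin at 0, Mkrn3 and Phlda2 passed and Cd81 and Ascl2 did not. These settings moved the 2 arrays in opposite directions. Their fits gave every gene the same variance, since their prior degrees of freedom became infinite. Magel2 turned to 0.0218 when centred and 0.0216 when scaled, and Dcx to 0.00326 as a median over probes, none of them passing.

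The maternal median of -1.01 became -0.98 with centring or scaling (-0.976 and -0.975) and -0.89 without Grb10 or with Gnas. Without the genes grouped above as mainly placental it was -4.10, and the paternal minus maternal difference turned to 2.87. Leaving out 1 array gave paternal medians from -1.66 to -1.13, maternal medians from -1.03 to -0.99 and differences from -0.63 to -0.14. Single arrays have no test. No paired analysis was possible because the 2 arrays form 1 group. A filter on dim probes, another background correction and the slide as a block could not be run on ratios alone.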
